A study of Mus musculus with 6 samples.

Results

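Replication-dependent histone genes were chosen by name, as the protein-coding genes of the GENCODE vM21 annotation called Hist1h, Hist2h, Hist3h or Hist4h. There were 67 of them among 21951 protein-coding genes, with 6 for the linker histone H1, 18 for H2A, 18 for H2B, 12 for H3 and 13 for H4. The starts of capped RNA were read by CAGE (cap analysis of gene expression), which sequences a short tag from the 5′ end of each captured RNA, in nuclear RNA of 2 mouse cell types with 3 libraries each. The mESC libraries came from R08, a male mouse embryonic stem cell line, grown without feeder cells in serum and LIF. The mOPC libraries came from Oli-neu, an immortalised line of mouse oligodendrocyte progenitors kept in proliferation medium with thyroid hormones, bFGF and PDGF-BB. Each cell type is 1 line, the study's methods use biological replicate for cell batches of differing passage without saying so of CAGE, no label says that these libraries came from separate cultures, and the library label in the files differed between the cell types, so that preparation and cell type cannot be told apart.

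Core histones wrap DNA into nucleosomes, with H2A, H2B, H3 and H4 in the core particle and H1 on the linker DNA. Replication-dependent histone genes are transcribed mainly in S phase, lie in clusters of near copies, have no introns as a rule, and give mRNAs that end in a conserved stem-loop instead of a poly(A) tail. NPAT drives their transcription, the stem-loop binding protein SLBP holds the stem-loop, and a U7 snRNP cuts the RNA just after it. Because tags were made with random primers on capped RNA, RNAs without a poly(A) tail could be captured. In bulk samples, fewer cells in S phase and less histone RNA per cell cannot be told apart.

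The members lay in 5 groups along 4 chromosomes, where a gap of over 200 kb started a new group. On chromosome 13 a first group ran from Hist1h2bl to Hist1h2bj (chr13:21715763-22043676, 23 genes) and a second from Hist1h4h to Hist1h2aa (chr13:23531050-23934851, 31 genes). Chromosome 3 held 10 (chr3:96219865-96270132), chromosome 11 held Hist3h2ba and Hist3h2a, and chromosome 6 held Hist4h4. All coordinates are on mm10 (GRCm38).

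The sequence around the main start is shown for 1 of the 2 genes with the most tags in mESCs of each type, and for Hist4h4, whose level differed little between the cell types. Capitals mark runs of TATA between 45 and 20 bases before the start and, near the right end, the deposited position with the most tags in mESCs. The sequences are from RefSeq (GRCm38.p6) promoters and span 45 bases before that position to 5 after it.
Hist1h1c, chr13:23738761-23738811, + strand: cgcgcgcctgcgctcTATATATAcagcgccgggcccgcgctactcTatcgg
Hist1h2ai, chr13:21716349-21716399, + strand: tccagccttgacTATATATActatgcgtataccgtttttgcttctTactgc
Hist1h2bb, chr13:23746709-23746759, + strand: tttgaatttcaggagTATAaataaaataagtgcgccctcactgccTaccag
Hist1h3e, chr13:23562382-23562432, - strand: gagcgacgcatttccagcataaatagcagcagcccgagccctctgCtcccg
Hist1h4d, chr13:23581522-23581572, + strand: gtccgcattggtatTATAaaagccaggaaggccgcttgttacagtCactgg
Hist4h4, chr6:136804413-136804463, - strand: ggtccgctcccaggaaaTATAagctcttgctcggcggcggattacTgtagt

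Of 40 members whose main start could be placed in such a sequence, 30 (75%) had TATA between 45 and 20 bases before the start, against 3.78% of 6167 protein-coding genes. This held for 5 of 5 H1, 9 of 10 H2A, 4 of 10 H2B, 6 of 8 H3 and 6 of 7 H4 genes. The deposited position was a pyrimidine in 36 of the 40 (90%) and the next base a purine in 39 (97.5%), with 92.8% and 94.9% over all protein-coding genes. Of the 52 members with enough tags in both cell types, 7 had their main position 1 base upstream of an annotated 5′ end and 0 exactly at it. Whether an extra base at the cap was trimmed before alignment is not given in the sources used here, and its part in this offset was not tested.

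Promoter motifs differed with histone type (letters searched on both strands from 250 bases before to 50 after the annotated start, in 62 members and 17492 protein-coding genes). CCAAT, the site of NF-Y, was in every H1, H2A, H2B and H3 promoter and in 3 of 12 H4 promoters (25%), against 39.0% of all. GGTCC, the core of the H4 element that HINFP binds, was in 11 of 12 H4 promoters (91.7%), against 48.8% of all. The octamer ATTTGCAT, bound by OCT1, was in 7 of 18 H2A and 7 of 16 H2B promoters and in no H1, H3 or H4 promoter, against 1.67% of all. AAACACA, an element known from H1 genes, was in 5 of 6 H1 promoters, against 6.22% of all. TATAAA was in 35 of the 62 (56.5%), against 13.3% of all. Head-to-head H2A and H2B genes, with 5′ ends 176 to 306 bases apart, share part of these windows. The same match can therefore count for both types. Matches of letters are descriptions and not sites of binding.

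**Figure D1:**
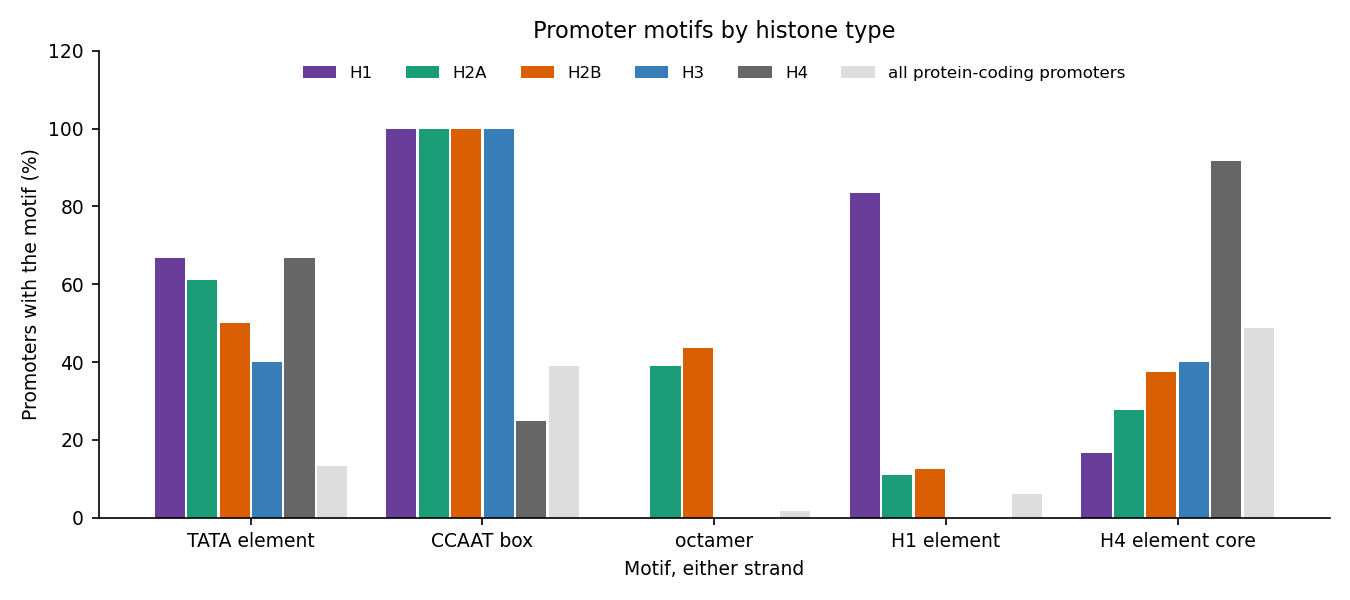
Share of promoters holding each motif on either strand (y axis, %), by histone type (colours) and for all protein-coding promoters (light grey), around the annotated start. The CCAAT box was in 100% of H1, H2A, H2B and H3 promoters and in 25% of H4 promoters, while the H4 element core was in 91.7% of H4 promoters. The windows of head-to-head H2A and H2B genes overlap.

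At the other end of the RNA, a stem of 6 pairs that begins GG and ends CC, with a loop of 4 bases that begins TT, was found after the stop codon in 42 of the 48 members with at least 60 annotated bases there, and it came in 6 different sequences. Capitals mark the stem and loop, whose coordinates are given, in the GENCODE vM21 transcripts, with 5 bases on either side.
Hist1h1c, chr13:23739512-23739527, + strand: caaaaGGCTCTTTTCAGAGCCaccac
Hist1h3e, chr13:23561903-23561918, - strand: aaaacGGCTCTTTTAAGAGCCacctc
Hist1h4d, chr13:23581950-23581965, + strand: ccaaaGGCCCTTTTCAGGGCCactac
Hist4h4, chr6:136803998-136804013, - strand: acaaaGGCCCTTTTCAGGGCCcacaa
Hist1h4m and Hist1h2ap, with 52 and 57 annotated bases, held one too. Counting these, the 11 stem-loops of H4 genes had 3 sequences and the 33 of the other types had 3, with 0 in common. They began 22 to 59 bases after the stop codon. The 6 members with a long annotated end and no such stem-loop were Hist1h2bc, Hist2h2be, Hist1h3g, Hist1h4a, Hist1h2bq and Hist1h2br.

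Libraries held 16657021 to 40928704 tags. Markers of each line followed its label, as 6 of 6 mESC markers were lower in mOPCs and 6 of 6 mOPC markers were higher. The position with the most tags took 0.508% to 0.667% of a library in mESCs and 5.38% to 5.92% in mOPCs, so levels in TPM (tags per 1000000 tags of the library) also depend on that position. Markers of differentiated oligodendrocytes (4 of 4) were higher in mOPCs, with summed levels of 280 to 311 TPM against 4.04 to 4.83 in mESCs. Of 3 neuron markers, Snap25 and Rbfox3 were lower in mOPCs (log2 fold changes -5.12 and -3.43) and Syt1 was higher, with 127 to 156 TPM in mOPCs and 3.96 to 4.68 in mESCs. Their part in the results was not tested. Summed markers of primitive endoderm had 24.3 to 28.9 in mESCs and at most 0.347 in mOPCs. Of the astrocyte markers, Gfap was higher in mOPCs (log2 fold change 0.76) and Aqp4 had too few tags to test. Of the fibroblast markers, Col1a1 was higher in mOPCs (log2 fold change 2.22, with means of 2.35 TPM in mESCs and 11.6 in mOPCs), and Col1a2 and Lum had too few tags. The part of these markers was not tested either.

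Histone genes took a far smaller share of the tags in mOPCs than in mESCs. Their summed level in TPM was 20320, 16359 and 16177 for mESCs and 1745, 2040 and 1781 for mOPCs. The groups did not overlap, with means of 17619 ± 2341 and 1855 ± 161 (SD, n = 3 each), a 9.50-fold difference. In mESCs this was 1.62% to 2.03% of all tags, and in mOPCs 0.174% to 0.204%. Among protein-coding genes ordered by level, 9 members were in the first 100 and 30 in the first 1000 in mESCs, against 0 and 1 in mOPCs.

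**Figure D2:**
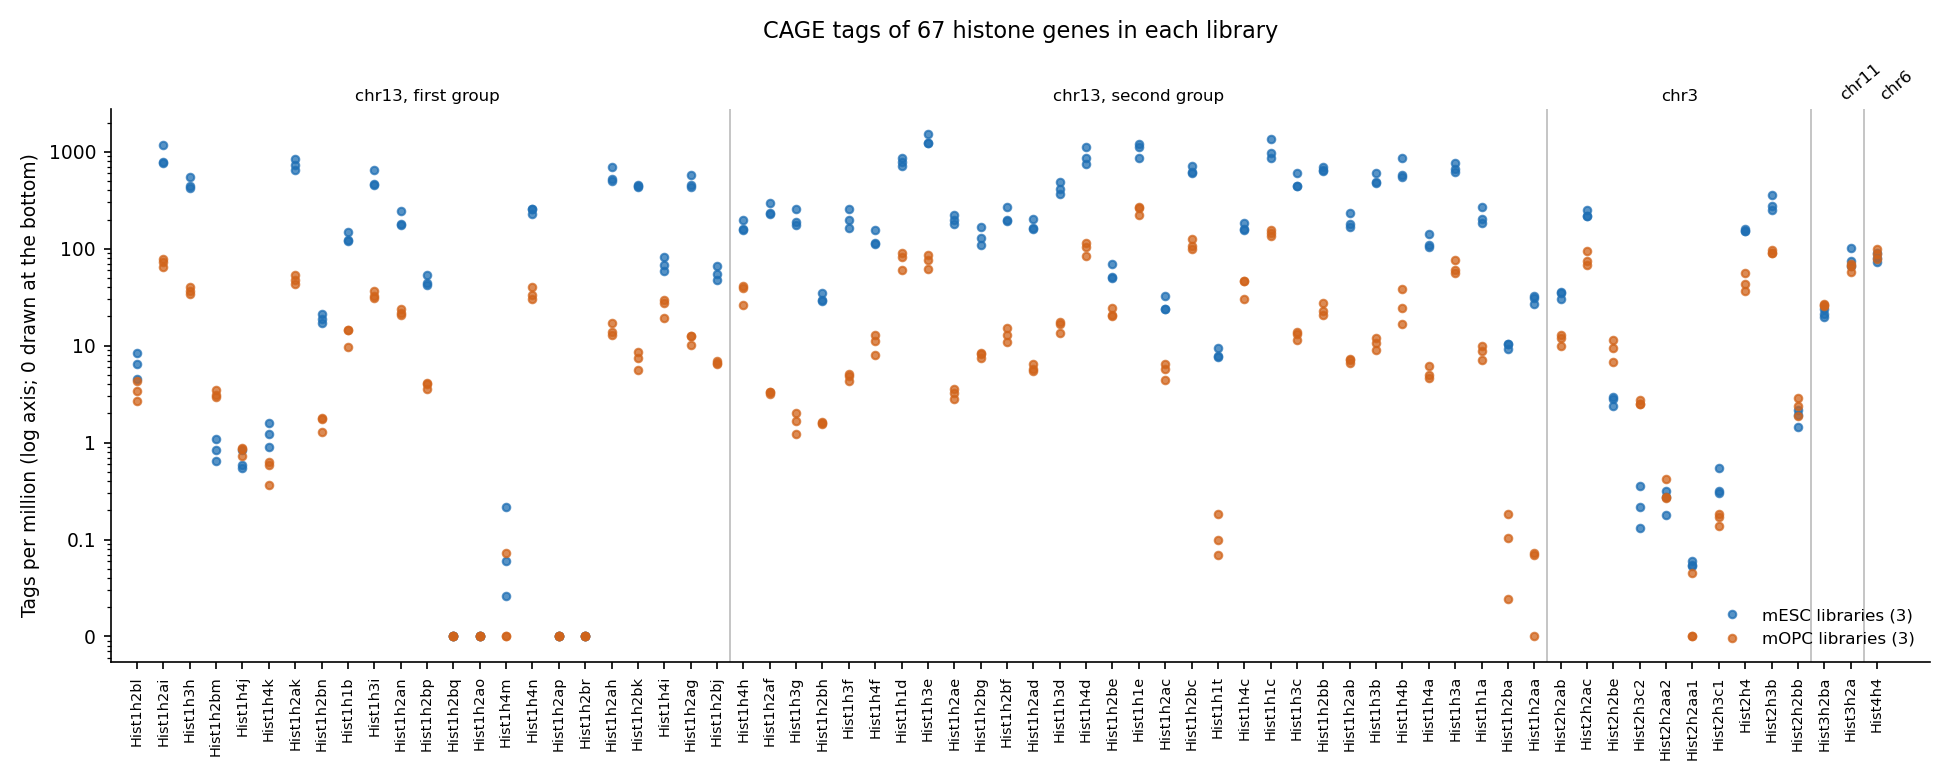
Level in TPM (y axis, log scale, with 0 drawn at the bottom) of each of the 67 histone genes in the 3 mESC (blue) and 3 mOPC (orange) libraries, in order along each chromosome. Most genes of chromosome 13 lay well apart between cell types, while Hist4h4 on chromosome 6 had 73.2 to 89.7 in mESCs and 79.1 to 98.9 in mOPCs.

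Of 59 members that passed the filter on low counts, 52 were lower in mOPCs and 3 higher by edgeR's quasi-likelihood test (Benjamini-Hochberg adjusted p under 0.05 over all 19002 genes tested), and 4 passed in neither direction. Over all genes tested, 46.2% were lower and 44.5% higher. A fall beyond 3 on the log2 scale was found for 36 of the 59, and for 17.5% of all genes tested. The median log2 fold change of the members, mOPC over mESC, was -3.63, and that of all genes tested was -0.04. A p-value here measures only the spread between these libraries.

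**Figure D3:**
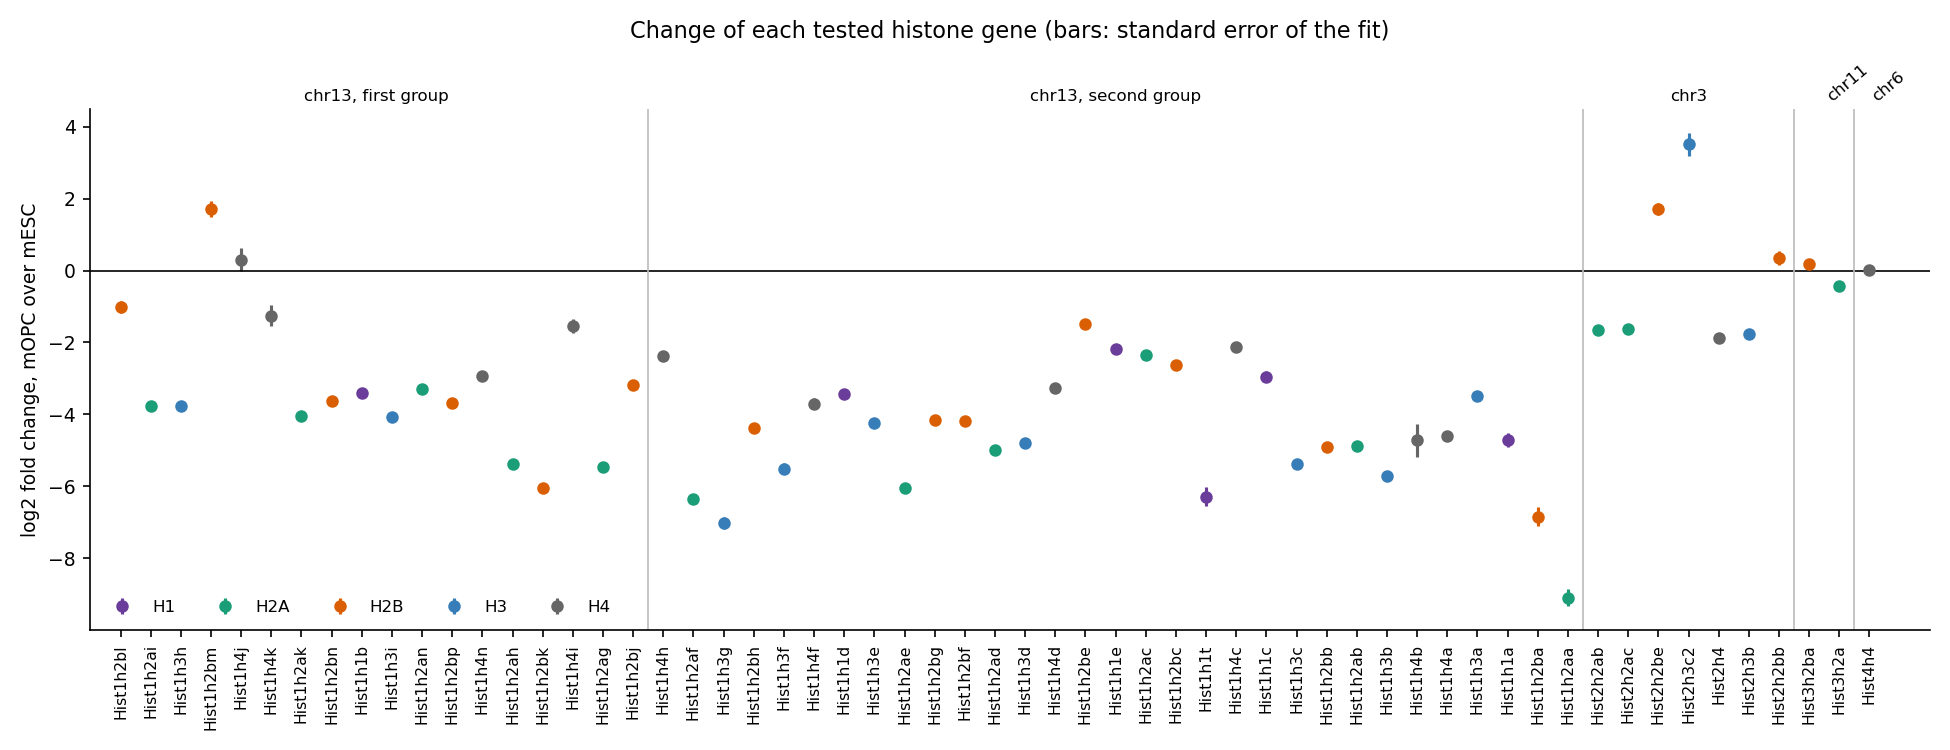
log2 fold change of mOPC over mESC (y axis, with the standard error of the fit as bars) of the 59 histone genes tested, in order along each chromosome and coloured by histone type. Values run from -9.10 for Hist1h2aa to 3.52 for Hist2h3c2, and all 31 genes of the second group of chromosome 13 lie below 0.

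The size of the difference varied between the types. Summed H3 genes were 14.6-fold lower and H2A genes 11.8-fold lower in mOPCs, H2B genes 9.70-fold, H1 genes 6.58-fold and H4 genes 6.54-fold. Sums weigh the genes with the most tags, and the median log2 fold change per gene gave another order, with -4.47 for H2A, -4.24 for H3, -3.42 for H1, -3.40 for H2B and -2.26 for H4. H3 went from 29.2% ± 0.42 of all histone tags in mESCs to 18.9% ± 0.55 in mOPCs (SD, n = 3). H1 went from 18.5% ± 1.25 to 26.8% ± 2.76 and H4 from 15.5% ± 1.18 to 22.4% ± 1.54, while H2B had 13.4% ± 0.59 and 13.1% ± 0.20. The libraries of the cell types did not overlap in the shares of H1, H2A, H3 and H4, and no test was made on these sums. The H2B sums leave out 28926 tags in reach of Hist2h2bb that were counted for the long non-coding RNA Gm42743. With every tag in reach counted, Hist2h2bb had 282 to 311 TPM in mESCs and 57.7 to 88.9 in mOPCs. The fold of H2B and the shares of all types thus depend on that choice.

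**Figure D4:**
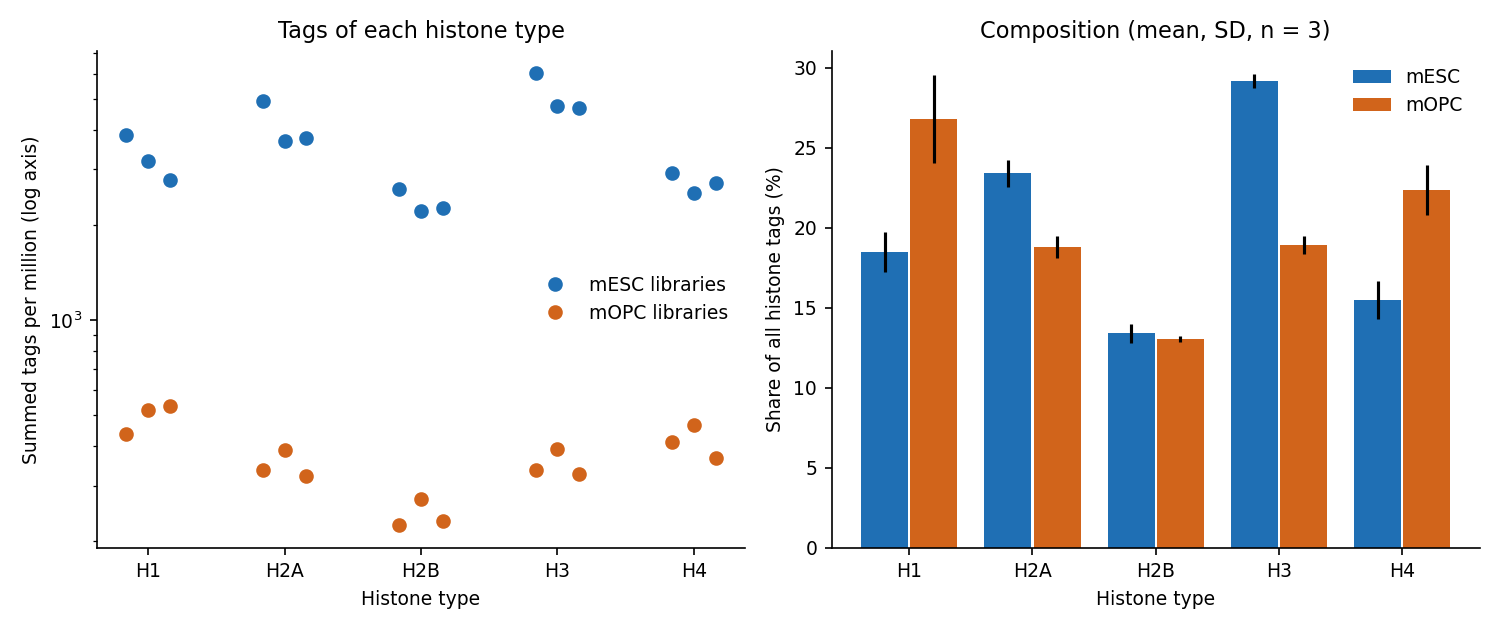
Left, TPM (tags per 1000000) summed over the genes of each histone type (y axis, log scale), with a point for each library. Right, the share of each type in all histone tags (%, mean with SD, n = 3), where H3 went from 29.2% to 18.9% and H1 from 18.5% to 26.8%.

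H1 genes, which code for the linker histones, were all lower in mOPCs. Hist1h1e had 1217, 1120 and 864 TPM in mESCs and 222, 269 and 262 in mOPCs. It kept the most tags of all members in mOPCs (log2 fold change -2.18 ± 0.11 SE, adjusted p = 1.51e-19). Hist1h1c had 1346, 971 and 861 in mESCs and 136, 147 and 157 in mOPCs (log2 fold change -2.95 ± 0.15, adjusted p = 1.01e-10). Hist1h1t, known from male germ cells, had 9.50, 7.74 and 7.65 in mESCs and at most 0.182 in an mOPC library (log2 fold change -6.30 ± 0.26, adjusted p = 3.47e-38). Its 10 mOPC tags lay mostly in the gene body, with 77.0% over 100 bases downstream of the start, and its log2 fold change was -8.34 with tags within 100 bp of the 5′ end and -3.56 with all tags in the gene body.

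All 14 H2A genes tested were lower in mOPCs. Hist1h2ai had 1165, 775 and 794 TPM in mESCs and 72.7, 78.5 and 64.1 in mOPCs (log2 fold change -3.77 ± 0.14, adjusted p = 8.74e-15). Hist1h2ak had 848, 652 and 729 in mESCs and 47.3, 53.1 and 43.6 in mOPCs (log2 fold change -4.05 ± 0.10, adjusted p = 2.15e-55). The widest gap was at the testis gene Hist1h2aa, which had 32.9, 26.96 and 31.3 in mESCs and 0, 0.0694 and 0.0733 in mOPCs (log2 fold change -9.10 ± 0.24, adjusted p = 1.504e-53). Hist2h2ac had 249.6, 218 and 216 in mESCs and 75.03, 95.2 and 67.8 in mOPCs, where it was the H2A gene with the most tags (log2 fold change -1.62 ± 0.09, adjusted p = 5.32e-25).

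Of 16 H2B genes tested, 12 were lower and 2 higher. Hist1h2bb had 702, 629 and 647 TPM in mESCs and 22.9, 27.6 and 20.7 in mOPCs (log2 fold change -4.90 ± 0.10, adjusted p = 4.85e-61). Hist1h2bc, one of the genes without a stem-loop in its annotated end, had 711, 605 and 614 in mESCs and 99.3, 126 and 106 in mOPCs (log2 fold change -2.64 ± 0.09, adjusted p = 1.91e-43). Hist1h2ba, an H2B gene of the testis that lies head to head with Hist1h2aa, had 10.4, 10.4 and 9.23 in mESCs and at most 0.182 in mOPCs (log2 fold change -6.85 ± 0.27, adjusted p = 1.88e-40, and -6.24 without the third mOPC library). Hist1h3g and Hist1h4a, of other types, also have no stem-loop in their annotated end and were lower (log2 fold changes -7.03 and -4.60). Hist2h2be, also without a stem-loop in its annotated end, moved the other way. It had 2.40, 2.82 and 2.98 in mESCs and 6.84, 9.40 and 11.5 in mOPCs (log2 fold change 1.72 ± 0.17, adjusted p = 4.05e-13). Hist1h2bm, chosen after its values were seen, was also higher, with 0.651 to 1.08 in mESCs and 2.92 to 3.50 in mOPCs (log2 fold change 1.71 ± 0.22, adjusted p = 2.90e-11).

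H3 genes held the member with the most tags in mESCs, Hist1h3e, with 1520, 1227 and 1237 TPM in mESCs and 76.9, 87.1 and 62.1 in mOPCs (log2 fold change -4.24 ± 0.11, adjusted p = 7.45e-43). Hist1h3a had 763, 670 and 617 in mESCs and 56.3, 76.9 and 60.9 in mOPCs (log2 fold change -3.50 ± 0.10, adjusted p = 1.28e-36). Hist1h3g showed the largest fall among H3 genes, from 255, 187 and 176 to 1.23, 2.01 and 1.69 (log2 fold change -7.03 ± 0.17, adjusted p = 4.77e-18). Hist2h3b kept more of its tags, with 355, 248 and 278 in mESCs and 90.6, 97.9 and 89.7 in mOPCs (log2 fold change -1.76 ± 0.09, adjusted p = 1.12e-24). Hist2h3c2 was the only H3 gene called higher (log2 fold change 3.52 ± 0.32, adjusted p = 1.22e-17), from 15 tags in all mESC libraries and 236 in all mOPC libraries. Its main position lay 657 bases downstream of its annotated 5′ end, and 78.6% of the 25-base words around its start also occur elsewhere in the promoters and transcripts searched, so its level is uncertain.

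Of 12 H4 genes tested, 10 were lower and 2 passed in neither direction. Hist1h4d had 1116, 868 and 749 TPM in mESCs and 103, 114 and 84.2 in mOPCs (log2 fold change -3.28 ± 0.13, adjusted p = 4.15e-15). Hist1h4b varied more between libraries, with 583, 551 and 871 in mESCs and 16.7, 24.4 and 38.2 in mOPCs (log2 fold change -4.72 ± 0.46, adjusted p = 0.000453). Hist2h4 had 153, 154 and 158 in mESCs and 43.6, 55.9 and 37.1 in mOPCs (log2 fold change -1.87 ± 0.09, adjusted p = 1.15e-25). Hist1h4j, named after its values were seen, had 0.543 to 0.840 in mESCs and 0.730 to 0.880 in mOPCs (log2 fold change 0.31 ± 0.31, adjusted p = 0.334). Hist4h4 overlapped between the cell types, with 89.7, 80.0 and 73.2 in mESCs and 88.3, 98.9 and 79.1 in mOPCs (log2 fold change 0.03 ± 0.08, adjusted p = 0.741).

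By place, the first group of chromosome 13 was 14.5-fold lower in mOPCs (16 lower and 1 higher of 18 tested, median log2 fold change -3.52) and the second 10.8-fold lower (31 of 31 tested, median -4.60). The group on chromosome 3 was 2.93-fold lower (4 lower and 2 higher of 7 tested, median -1.62). The pair on chromosome 11 differed by 1.12-fold. Chromosome 13 thus held 94.9% of histone tags in mESCs and 77.2% in mOPCs, while chromosome 3 went from 4.07% to 13.1%, chromosome 11 from 0.575% to 4.90% and chromosome 6 from 0.461% to 4.78%. The chromosome 3 sums leave out the 28926 tags in reach of Hist2h2bb that were counted for Gm42743. The fold and calls of that group, and the shares of all chromosomes, thus depend on that choice. Other protein-coding genes between the members of chromosome 13 were few, and of the 2 tested in each group 1 was lower and 1 higher.

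On chromosome 11, Hist3h2a had 101, 74.4 and 65.9 TPM in mESCs and 57.6, 69.6 and 66.1 in mOPCs, which overlap (log2 fold change -0.42 ± 0.14, adjusted p = 0.00930). It did not pass the test without the third mOPC library (-0.45) or with scaling to the library total (-0.33), and with all tags in gene bodies it was 1.71. Hist3h2ba had 23.6, 21.2 and 19.8 in mESCs and 26.8, 26.4 and 25.5 in mOPCs (log2 fold change 0.18 ± 0.10, adjusted p = 0.0781). On chromosome 3, Hist2h2ab had 36.1, 30.02 and 34.7 in mESCs and 12.9, 12.1 and 10.0 in mOPCs (log2 fold change -1.64 ± 0.10, adjusted p = 2.41e-26).

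Hist2h2bb depended on how tags were shared out. Each tag was counted once, for the nearest annotated 5′ end, and the long non-coding RNA Gm42743 starts 31 bases upstream of Hist2h2bb on the same strand and took 28926 tags. With the tags left to it, Hist2h2bb had 1.45, 1.92 and 2.17 TPM in mESCs and 1.87, 2.88 and 2.39 in mOPCs (log2 fold change 0.35 ± 0.21, adjusted p = 0.102). With every tag in reach counted, a choice made after seeing the data, it had 311, 295 and 282 in mESCs and 57.7, 88.9 and 87.0 in mOPCs (log2 fold change -2.01 ± 0.16, adjusted p = 8.01e-07), and 53 members were lower.

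The low-count filter left 8 members out of the test. Hist1h2bq, Hist1h2ao, Hist1h2ap and Hist1h2br had 0 tags in all 6 libraries, which allows up to 0.0411 TPM in the pooled mESC libraries and 0.0327 in the pooled mOPC libraries, by counting error only. Hist1h4m had 6 and 3 tags in mESCs and mOPCs, Hist2h2aa1 4 and 1, Hist2h2aa2 20 and 29, and Hist2h3c1 27 and 15. Fitted without the filter, Hist2h3c1 was lower in mOPCs (log2 fold change -1.27 ± 0.53, adjusted p = 0.0246) and the other 3 passed in neither direction. Their near copies are a possible limit here. The study's methods state that only unique alignments were kept, but the aligner behind the counts is uncertain. The part of near copies in these low counts was not tested. All 25-base words around the start of Hist1h2ao, Hist1h2bq, Hist1h2br and Hist2h2aa2 also occur elsewhere in the sequences searched, while 46 of 62 members shared none. Hist1h4m and Hist1h4n show the point, as the bases around their starts are the same.
Hist1h4m, chr13:21811699-21811749, + strand: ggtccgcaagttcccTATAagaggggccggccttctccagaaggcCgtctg
Hist1h4n, chr13:21832193-21832243, - strand: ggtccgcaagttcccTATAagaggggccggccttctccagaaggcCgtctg
Hist1h4n had 20606 tags and Hist1h4m 9, and with most of these words shared their levels are uncertain.

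H2A and H2B genes are often paired head to head. There were 13 divergent pairs of members, 12 of them an H2A and an H2B gene, and a tag was given only to the gene on its own strand. In 8 of the 10 H2A and H2B pairs with both genes tested, the H2A gene had more tags in mESCs, as at Hist1h2ai with 911 TPM against 6.48 for Hist1h2bl. Both partners had a log2 fold change below 0 in 9 of the 10, and the fold changes of partners differed by a median of 1.35 on the log2 scale. Hist2h2ac and Hist2h2be differed by 3.34, with -1.62 and 1.72. The remaining pair, Hist1h2bh and Hist1h3f, had -4.39 and -5.51.

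Starts were sharp and mostly shared. In 52 members with at least 100 tags in both cell types, the position with the most tags was the same in 45 (86.5%), against 57.0% of 11094 protein-coding genes. That position held a median of 75.7% of a member's tags in mESCs and 58.7% in mOPCs, against 16.8% and 15.8% over protein-coding genes. These shares are of all tags given to a gene, from its whole body and all its annotated 5′ ends. Histone genes are mostly short, so both contrasts with other genes also depend on gene length and the number of 5′ ends. The part of these was not tested. All 10 H3 and all 10 H4 members kept their position. Distances in both cell types were taken from the main start in mESCs, which can lower the mOPC share where the main position differed. Tags within 10 bases of the main start in mESCs made up 98.3% to 98.4% in mESC libraries and 94.5% to 94.6% in mOPC libraries. Tags over 100 bases downstream of it made up 0.210% to 0.246% and 1.24% to 1.503%, so they were a larger share where the genes had fewer tags. At the 35 members without a divergent partner, tags on the opposite strand were 0.489% to 0.539% of the sense tags in mESCs and 2.60% to 2.95% in mOPCs. The main start of Hist1h2be lay 35087 bases inside its annotated 5′ end, that of Hist1h1d 1770 bases inside and that of Hist1h3f 411 bases inside. Hist1h2be was also given 1806 tags in reach of Hist1h1e. Of its tags, 80.9% in mESCs and 17.8% in mOPCs lay within 10 bases of its main start, so its level depends on how tags were shared out.

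**Figure D5:**
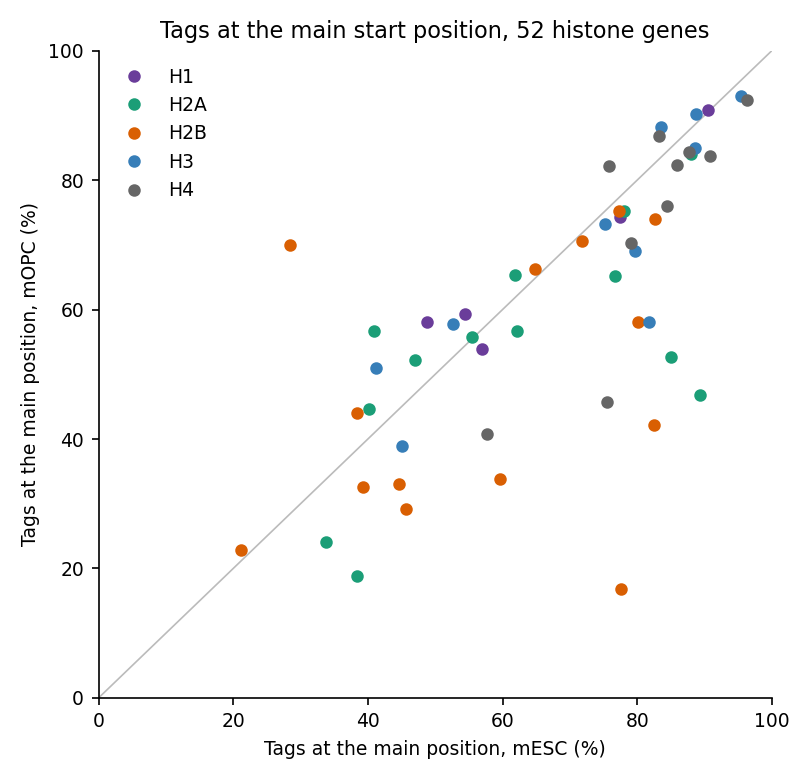
Share of a gene's tags at its position with the most tags in mESCs (x axis, %) and in mOPCs (y axis, %), with a point for each of 52 histone genes coloured by type and the line of equal shares. Median shares were 75.7% in mESCs and 58.7% in mOPCs.

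Genes that serve histone mRNA production were mostly lower in mOPCs, 16 of 20 with 1 higher and a median log2 fold change of -0.74, where 46.2% of all genes tested were lower and 44.5% higher. Slbp, the stem-loop binding protein, had 166, 149 and 150.1 TPM in mESCs and 129.6, 109.8 and 125 in mOPCs (log2 fold change -0.45 ± 0.08, adjusted p = 4.60e-07). Npat had 125, 124 and 124 in mESCs and 79.2, 76.1 and 79.9 in mOPCs (log2 fold change -0.76 ± 0.08, adjusted p = 8.49e-15). Hinfp, the H4 factor, had 19.2, 18.6 and 17.8 in mESCs and 20.1, 17.9 and 17.2 in mOPCs (log2 fold change -0.11 ± 0.10, adjusted p = 0.287). Zfp473, a zinc finger protein of the U7 snRNP complex, fell most (log2 fold change -3.46 ± 0.12, adjusted p = 5.70e-44, and -4.85 with tags within 100 bp of the 5′ end) and Sympk, a scaffold of the cleavage complex, was higher (log2 fold change 0.20 ± 0.08, adjusted p = 0.0169). Sympk did not pass the test without the second mESC (0.14), the third mESC (0.17) or the third mOPC library (0.14).

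All 20 genes of DNA replication and S phase were lower in mOPCs, against 46.2% of all genes tested, with a median of -2.69 on the log2 scale, nearer to 0 than the -3.63 of the histone genes. Cyclin E1 (Ccne1) fell most, from 128, 106 and 109 TPM in mESCs to 2.87, 2.46 and 2.88 in mOPCs (log2 fold change -5.47 ± 0.12, adjusted p = 1.98e-60). Of 11 replication-independent histone variants, which are made outside S phase as well, 6 were lower and 4 higher, a split near that of all genes tested (46.2% lower and 44.5% higher). H2afx fell by 3.88 on the log2 scale (SE 0.10, adjusted p = 2.23e-55), and H3f3b rose by 1.74 (SE 0.13, adjusted p = 1.80e-22) from 5.16 to 6.42 TPM in mESCs and 17.4 to 23.4 in mOPCs. H3f3b has near copies elsewhere in the genome, and reads lost to them were not tested. The share of cells in S phase was not measured in these data, and its part in the histone levels was not tested.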

How the data were processed

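CAGE was made from nuclear RNA of 3 mESC and 3 mOPC libraries. The deposited values are counts, without normalization: how many tags begin at a given base and strand of mm10. The study's methods state that only unique alignments were kept. The study's methods and the submitters' processing notes name different aligners (bowtie in the former, BWA 0.5.9 and CASAVA 1.8 in the latter), so the aligner behind the counts is uncertain.

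Each tag was counted once, for the nearest 5′ end of a GENCODE vM21 protein-coding or long non-coding RNA gene within 500 bp on its strand, else for the gene body it lay in. A CAGE tag marks a 5′ end, so levels were not divided by gene length. Counts still include tags in gene bodies, and longer bodies can hold more of them. The low-count filter passed 19002 genes, against 16613 with tags within 500 bp of a 5′ end only. Levels are TPM (tags per 1000000), scaled to the library total (16657021 to 40928704 tags). Cell types were compared with edgeR 4.0.16 (R 4.3.3; robust quasi-likelihood test, TMM, filterByExpr, Benjamini-Hochberg adjusted p under 0.05 over all genes) and with DESeq2 1.42.0 as an alternative, after a check on simulated data. Starts and letters were read with Python 3.11.15, pandas 2.3.3 and numpy 2.4.6, and figures drawn with matplotlib 3.10.9. Promoter sequences are RefSeq's. No genome sequence was used, so words shared between members were sought only in promoters and transcripts. Floors take 3 tags over the pooled libraries and cover counting error only.

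The members and gene lists were chosen with earlier results of these data known. Named genes were the 2 members of each type with the most tags in each cell type, the called member of each type with the largest change in each direction, all Hist2h, Hist3h and Hist4h genes, testis members, and, of the other lists, Slbp, Npat, Hinfp and the largest called change in each direction. Other members are named where a count, sequence, start or pair turned on them, after their values were seen. Same-numbered libraries did not deviate together (correlations of 0.0156, 0.0113 and -0.0014), so the fit was not paired.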

Additional observations from a re-analysis of the deposited data

How the results depend on the processing

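The number of histone genes called lower was 49 to 53 under all settings but one. With all tags in the gene body and overlaps counted in each gene it was 41 of 47 tested, with the median log2 fold change at -2.32. With scaling to the library total, 5 were called higher instead of 3. Leaving out each library in turn gave 51 to 52 lower, 3 to 4 higher, a median of -3.73 to -3.50 and a log2 ratio of summed tags of -3.32 to -3.13. The replicate block gave 52 lower, 3 higher and a median of -3.62. The log2 ratio of summed tags was -3.25, and lay between -3.38 and -3.05 under all other settings tried. Of the 32 named genes tested, Hist4h4 (0.03 in the main fit) turned sign under 6 settings. These were gene bodies (-0.69), DESeq2 (-0.0133), its size factors (-0.0147) and some fits with a library left out (as low as -0.0628). Other fits with a library left out kept the sign and reached 0.12. Hist3h2a turned sign with gene bodies (1.71). Hist2h2bb did so with every tag in reach counted (-2.01), a count that adds the 28926 tags given to Gm42743. The cause of the other turns was not tested. With gene bodies, 9 of 25 called named genes moved by over 1.5 times in fold, 8 of them nearer to 0, among them Hist1h3e (-1.46), Hist1h4d (-1.19), Hist1h2ak (-1.60) and Hist1h4b (-2.66). That count leaves out tags upstream of the annotated 5′ end. Sympk lost its call with DESeq2 (0.16). Hist3h2ba was called higher with scaling to the library total (0.27), without positions in reach of several genes (0.20) and without the first mESC library (0.27), and Hist2h2bb with the same scaling (0.44) and without the first mOPC library (0.50). Depth limits genes near 0 tags, such as the near copies at 0.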
